A study of Homo sapiens with 6 samples.

Results

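Genes of the metalloproteinase system were compared by RNA sequencing between WM164 melanoma cells given a tethered dimer of MAFG and MITF (T-MGM) and WM164 cells given GFP. The members were chosen by symbol among the protein-coding entries of the count table: matrix metalloproteinases (MMPs), ADAMs, ADAMTS proteases with their ADAMTS-like (ADAMTSL) relatives, and TIMP1 to TIMP4. The rule took 72 genes of 58870 in the table, 19986 of which were protein-coding. One of the 72, MMP24OS, is a gene on the strand opposite MMP24 that shares only the name, so 71 members belong to the protease and inhibitor families. WM164 is an established human melanoma line, and 3 libraries were made per group. Both groups were given a transgene, GFP in the control. Per the study's methods, the constructs were delivered by lentivirus under the EF1α promoter, which is active in most cell types, with blasticidin selection, and T-MGM joins the melanoma isoform of MITF to MAFG by a flexible linker. The comparison therefore rests on 1 cell line and a constitutive promoter. Nothing in the labels says that the 3 libraries of a group came from separate cultures, so p-values measure only the spread between these libraries.

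Metalloproteinases are zinc enzymes that cut proteins outside the cell or at its surface. MMPs degrade collagens and other matrix proteins, ADAMs release the outer parts of membrane proteins such as growth factors, and ADAMTS enzymes cut proteoglycans and process procollagens. TIMPs bind the active site of these enzymes and block them, and most of the proteases are made as inactive precursors. In melanoma the system is known for its part in invasion through the dermis and in the release of growth factors.

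The GFP libraries held 35057239 to 38738065 counts in total and those labelled T-MGM 44577774 to 59250663, so every T-MGM library was sequenced more deeply. Values are counts normalized for depth. Fold changes are log2 ratios with T-MGM in the numerator, and a gene passed at a DESeq2 adjusted p at or under 0.05. A gene that also differed by over 2-fold was called. The construct's own genes differed little between the groups. MAFG had 2535, 2397 and 2442 normalized counts in GFP replicates 1 to 3, against 2396, 2351 and 2327 in the libraries labelled T-MGM, and MITF had 19111, 19169 and 19204 against 20447, 20121 and 20240.3. MAFG did not pass (log2 fold change -0.06, adjusted p 0.236), and MITF passed at 0.08 (adjusted p 4.8e-07), with no overlap between groups for either gene. These differences are small for a check of the labels, and overexpression of the construct was not visible in the counts of either gene. The cause was not tested, and the groups are taken as labelled. The 6 melanocyte lineage markers were abundant in all libraries, with summed normalized counts of 115373 to 116089 in GFP and 107778 to 110535 in T-MGM. Within that sum the markers moved apart: DCT fell by 2.49 on the log2 scale, MLANA by 0.68 and TYR by 0.35, while SOX10, PMEL and MITF rose by 0.11, 0.05 and 0.08 in the counts and were lower on the TPM scale. The receptor AXL rose by 2.26.

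Of the 72 members, 48 had enough reads for an adjusted p. In the libraries labelled T-MGM, 18 of them were higher and 5 were lower, and 25 did not pass; over all 19135 genes tested, 19.2% passed as higher and 19.2% as lower. The called members were ADAMTS3, TIMP4, ADAM19 and MMP9, all higher, and ADAMTS4, which was lower. Over all genes tested, 3.26% were called higher and 1.36% were called lower. The groups had no overlap in 24 of the 48 members, beside 46.8% of all genes tested. The median log2 fold change of the 48 was 0.31, and that of all genes tested was 0.00 (-0.0027). It was 0.13 for the 23 members averaging at least 100 normalized counts and 0.43 for the 25 tested members below that level. Of those 25, 21 did not pass. The medians of all tested genes at these 2 levels were -0.01 and 0.05. The share of members that passed was 47.9%, beside 49.4% of tested protein-coding genes.

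Most members that passed were abundant ones. Of the 23 members averaging at least 100 normalized counts, 14 were higher, 5 were lower and 4 did not pass, a share of 82.6% beside 56.3% of all tested genes at that level. Of the 25 tested members below that level, 4 passed and all 4 were higher, a share of 16% beside 10.6% of all tested genes under 100. The remaining 24 members had no adjusted p: 10 had no count in any library, 7 reached at most 3 counts and 7 reached at most 7 counts. At these depths 3 counts correspond to 0.0506 to 0.0856 CPM. This floor covers counting error only, because molecules were not tagged before amplification.

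**Figure D1:**
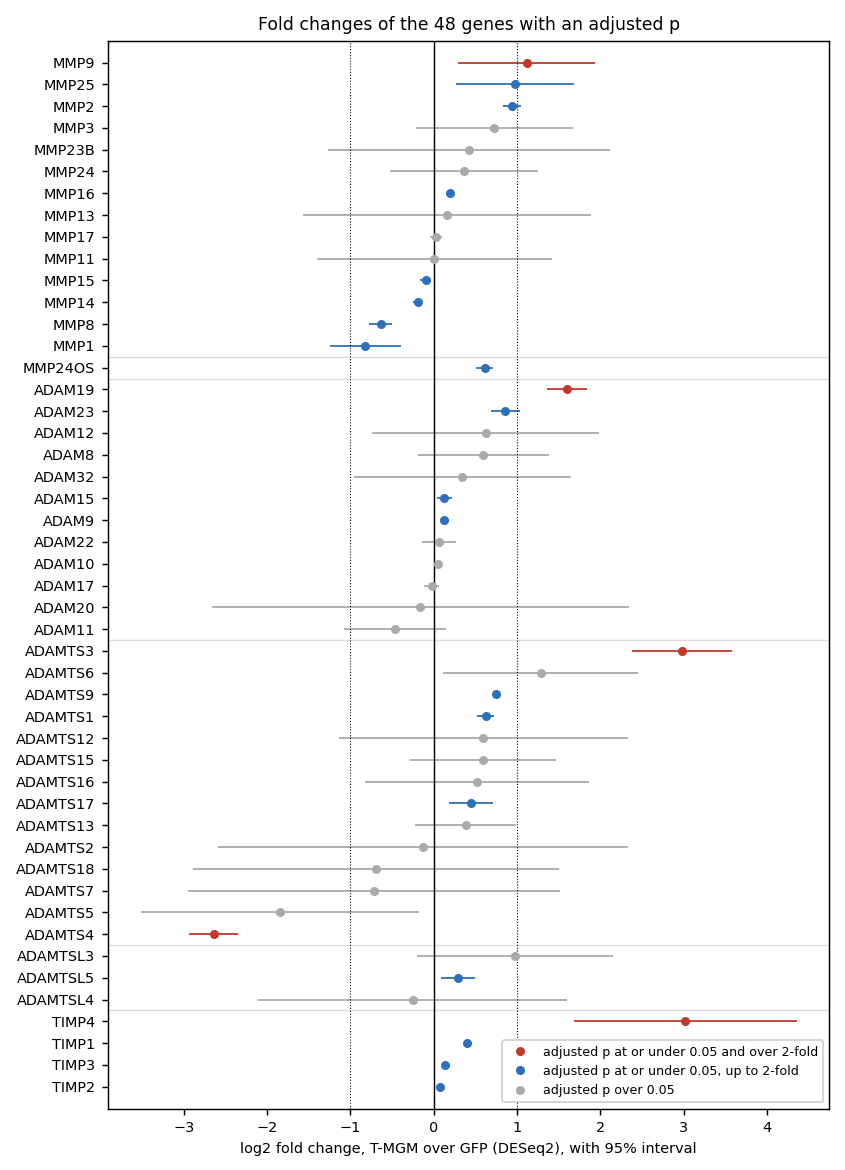
Log2 fold changes, T-MGM over GFP, of the 48 members with an adjusted p, grouped by family from top to bottom (MMP, MMP24OS, ADAM, ADAMTS, ADAMTSL, TIMP). Points are DESeq2 estimates from 3 libraries per group and lines are 95% intervals; red marks the 5 called members, blue the other 18 that passed and grey the 25 that did not, and dotted lines mark a 2-fold change. ADAMTS3 and TIMP4 lie near 3 on the right and ADAMTS4 near -2.64 on the left.

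Both gelatinases, the MMPs that degrade denatured collagen and basement membrane collagen, passed as higher. MMP2 had 841, 927 and 954 normalized counts in the GFP libraries, against 1749, 1773 and 1711 in the T-MGM libraries. The groups were far apart, with a log2 fold change of 0.94 (SE 0.06, adjusted p 1.19e-62), a 1.92-fold difference just under the 2-fold threshold. MMP9 had few reads. It had 14.4, 16.2 and 29.7 normalized counts in GFP, against 28.3, 64.4 and 38.4 in T-MGM, so that GFP replicate 3 exceeded T-MGM replicate 1 and the groups overlapped. Its log2 fold change was 1.11 (SE 0.42, adjusted p 0.0222). The call was lost without GFP replicate 1 (adjusted p 0.111), without GFP replicate 2 (0.102) and without T-MGM replicate 2, where the log2 fold change was 0.73 (0.268). SLC12A5-AS1 lies opposite 18.4% of the exon bases of MMP9 and had at most 6 counts in any library.

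The collagenases, which make the first cut in fibrillar collagen, were lower where they passed. MMP8, the neutrophil collagenase, was the most abundant of the 3 by TPM. It had 1079, 1065 and 1033 normalized counts in GFP, against 653, 741 and 651 in T-MGM. The groups did not overlap, and MMP8 fell by 0.64 on the log2 scale (SE 0.07, adjusted p 1.11e-19). MMP1, the interstitial collagenase, had 101, 161 and 145 normalized counts in GFP, against 92.1, 68.3 and 70.8 in T-MGM. It fell by 0.82 (SE 0.22, adjusted p 0.000569), with GFP replicate 1 close to T-MGM replicate 1. MMP13 stayed at or under 16 counts and gave a log2 fold change of 0.16 (SE 0.88, adjusted p 0.921).

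MMP1 and MMP8 belong to a row of MMP genes on chromosome 11. It holds 9 members between positions 102520508 and 102955732 of GRCh38: MMP7, MMP20, MMP27, MMP8, MMP10, MMP1, MMP3, MMP12 and MMP13 in that order. Only 4 of them had an adjusted p, of which MMP1 and MMP8 were lower and none was higher. MMP3, a stromelysin that also activates other MMPs, gave a log2 fold change of 0.73 that did not pass (SE 0.48, adjusted p 0.253), except without GFP replicate 2 (log2 fold change 1.43, adjusted p 0.0417). The other genes within 10 Mb of MMP8 had a median log2 fold change of -0.10, beside -0.82 for MMP1 and -0.64 for MMP8. Any part of their shared position in these changes was not tested.

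The rest of the secreted MMPs were near or below detection. Of the stromelysins, MMP11 gave a log2 fold change of 0.01 (SE 0.72, adjusted p 0.995) and MMP10 reached at most 4 counts. The matrilysins MMP7 and MMP26 had no counts. Among the other MMPs, MMP23B alone had an adjusted p (0.762), MMP27 and MMP28 had no counts, and MMP12, MMP19, MMP20 and MMP21 reached at most 7.

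**Figure D2:**
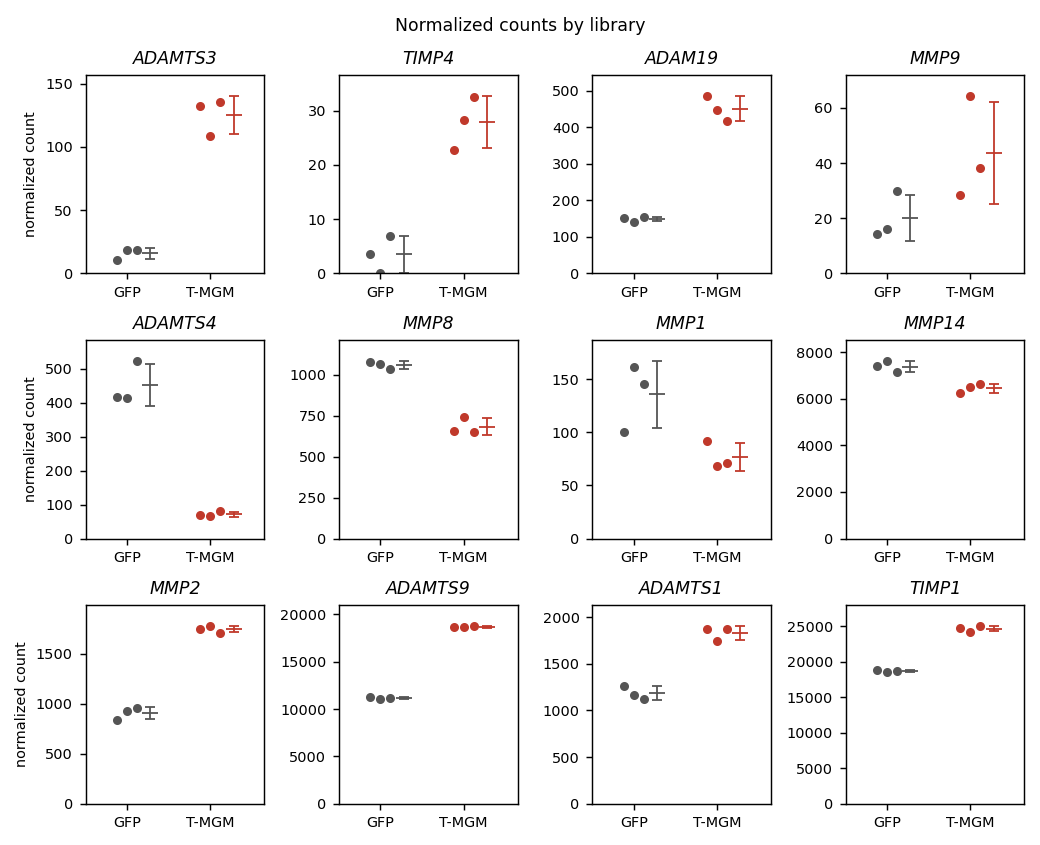
Normalized counts per library for 12 members, GFP in grey and T-MGM in red, with 3 libraries per group. Points are libraries in replicate order, the bar beside them is the mean with SD, and each vertical axis starts at 0 with its own scale. The groups are apart in every panel except that of MMP9, where GFP replicate 3 at 29.7 lies above T-MGM replicate 1 at 28.3.

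Membrane-type MMPs, which sit at the cell surface and act close to it, included the most abundant MMPs by TPM, and those changed little. MMP14 (MT1-MMP), known as an activator of pro-MMP2, had 7394, 7605 and 7125 normalized counts in GFP, against 6225, 6499 and 6622 in T-MGM. It fell by 0.19 on the log2 scale (SE 0.03, adjusted p 2.84e-11), so MMP14 was lower in the same libraries in which MMP2 was higher. MMP15 had 3383, 3434 and 3532 against 3200.3, 3247 and 3234. It fell by 0.10 (SE 0.03, adjusted p 0.00938) and did not pass without GFP replicate 3 or without T-MGM replicate 1, with adjusted p up to 0.0992.

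MMP16 rose, from 11228, 11019.9 and 11387 normalized counts to 13012, 12772 and 12771. Its log2 fold change was 0.20 (SE 0.02, adjusted p 1.09e-23), and the groups did not overlap. MMP17, which is anchored by a lipid, had 2329, 2321 and 2258 in GFP, against 2348, 2413 and 2282 in T-MGM. These values overlapped, with a log2 fold change of 0.03 (SE 0.04, adjusted p 0.665) and a 95% interval of 0.965-fold to 1.07-fold. MMP25 was rare, at 16.8, 22.7 and 35.4 against 40.1, 61.5 and 45.8, a log2 fold change of 0.97 (SE 0.36, adjusted p 0.0211). It is named after its values were seen, and it did not pass when GFP replicate 1, GFP replicate 2, T-MGM replicate 2 or T-MGM replicate 3 was left out, with adjusted p up to 0.16. Without GFP replicate 3 or T-MGM replicate 1 it was over 2-fold, at 1.31 and 1.09.

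The antisense gene MMP25-AS1 lies opposite 30.6% of the exon bases of MMP25. It also rose, from 210.3 to 286 normalized counts on average (log2 fold change 0.44, SE 0.14, adjusted p 0.00495). Whether reads were counted by strand is uncertain here, so reads of the 2 genes may be mixed where their exons overlap. The same holds for MMP24, a membrane-type MMP of the nervous system, with 22.1% of its exon bases opposite MMP24OS and another gene. MMP24 did not pass (log2 fold change 0.36, SE 0.45, adjusted p 0.598), whereas MMP24OS rose from 1337, 1392 and 1384 normalized counts to 2062, 1972 and 2236 (log2 fold change 0.61, SE 0.05, adjusted p 4.42e-31).

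Among the ADAMs that carry an active protease site, ADAM19 was the clearest. ADAM19 (meltrin beta) is known for the cleavage of neuregulin. It had 151, 142 and 153 normalized counts in GFP, against 486, 449 and 418 in T-MGM. Each T-MGM library was above all GFP libraries, with a log2 fold change of 1.60 (SE 0.12, adjusted p 7.27e-37), a 3.03-fold difference with a 95% interval of 2.56 to 3.59. The change lay between 1.54 and 1.66 with any single library left out.

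The widely expressed sheddases differed by small amounts. ADAM10, the main sheddase of many adhesion proteins and of Notch receptors, had 6803, 6796 and 6857 normalized counts in GFP, against 7185, 6983 and 7046 in T-MGM. These values did not overlap, but the log2 fold change of 0.05 (SE 0.02) did not pass (adjusted p 0.058). ADAM10 passed with edgeR (adjusted p 0.0475), with TMM factors (0.0184), without T-MGM replicate 2 (0.0422) and after correction for GC content and length, where its log2 fold change was 0.20 (1.26e-17). ADAM17, which releases tumor necrosis factor and ligands of the epidermal growth factor receptor, had 2054, 1882 and 1884 against 1878, 1896 and 1947. Its log2 fold change was -0.02 (SE 0.05, adjusted p 0.756), with a 95% interval of 0.926-fold to 1.05-fold, and it turned to 0.12 after the GC content and length correction (0.0274).

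ADAM9, a broadly expressed ADAM, had 5075, 5292 and 5400.4 normalized counts in GFP, against 5700.0, 5803 and 5709 in T-MGM. It rose by 0.13 (SE 0.03, adjusted p 1.8e-05). ADAM15, known as metargidin, had 1898, 1719 and 1777 against 1931, 1996 and 1966, and rose by 0.13 as well (SE 0.05, adjusted p 0.0145). Without GFP replicate 2 or 3, or without T-MGM replicate 2 or 3, ADAM15 did not pass (adjusted p up to 0.148). In the deposited TPM values, abundances scaled for transcript length, ADAM9 was level at 27.5 in each group and ADAM15 was 18.3 in GFP and 17.5 in T-MGM (log2 fold change -0.07). The median gene also moved by -0.13 on that scale. ADAM15 further turned to -0.02 after correction for GC content and length.

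ADAM8, ADAM12 and ADAM20 were tested and did not pass, with adjusted p of 0.261, 0.548 and 0.945. ADAM21, ADAM28 and ADAM33 reached at most 6 counts, and ADAM30 had none. Of the ADAMs that lack protease activity or are known for adhesion, ADAM23, a ligand of integrins and a partner of the LGI proteins in neurons, had 373, 348 and 421 normalized counts in GFP, against 708, 708 and 659 in T-MGM. The groups did not overlap, and ADAM23 rose by 0.86 (SE 0.09, adjusted p 1.61e-20). ADAM22, a related LGI receptor, did not pass at a log2 fold change of 0.06 (SE 0.10, adjusted p 0.696). ADAM11 and ADAM32 did not pass, ADAM29 reached at most 2 counts, and ADAM2, ADAM7 and ADAM18 had none.

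The ADAMTS family held called changes in both directions. ADAMTS3, a procollagen N-proteinase that also processes the lymphatic growth factor VEGFC, had 10.8, 18.4 and 18.3 normalized counts in GFP, against 132, 108 and 136 in T-MGM. The lowest T-MGM library thus lay well above the highest GFP library. The log2 fold change was 2.98 (SE 0.31, adjusted p 4.62e-21), a 7.90-fold difference with a 95% interval of 5.20 to 11.98. The other procollagen N-proteinases had too few reads for a comparison: ADAMTS2 reached at most 7 counts (log2 fold change -0.13, SE 1.25, adjusted p 0.955) and ADAMTS14 at most 2.

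ADAMTS4, an aggrecanase, was the only called member that was lower. It had 419, 415 and 523 normalized counts in GFP, against 68.4, 67.3 and 80.4 in T-MGM. ADAMTS4 fell by 2.64 on the log2 scale (SE 0.15, adjusted p 4.82e-68), which is a 6.24-fold lower level. The change lay between -2.73 and -2.52 with any single library left out.

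Of the other proteoglycan-cutting members, ADAMTS9 and ADAMTS1 rose, and the rest did not pass or were not tested. ADAMTS9, the most abundant of the ADAMTS genes by TPM, had 11257, 11019.9 and 11131 normalized counts in GFP, against 18636, 18624 and 18746 in T-MGM. The groups were far apart beside the spread of their replicates, and the log2 fold change was 0.75 (SE 0.02), with an adjusted p too small for DESeq2 to store. ADAMTS1, which cuts versican and aggrecan, had 1266, 1170.4 and 1126 against 1873, 1743 and 1869. It rose by 0.62 (SE 0.05, adjusted p 3.51e-30), but did not pass on the TPM values (adjusted p up to 0.173). ADAMTS5, the other main aggrecanase, had at most 15 counts and gave a log2 fold change of -1.85 that did not pass (SE 0.85, adjusted p 0.0731). It passed without GFP replicate 1 (log2 fold change -2.22, adjusted p 0.0444) and without T-MGM replicate 2 (-2.52, 0.0462). ADAMTS15 did not pass at 0.59 (SE 0.45, adjusted p 0.327). ADAMTS20 reached at most 5 counts and ADAMTS8 had none.

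Within the aggrecanases and their relatives, ADAMTS4 was thus lower while ADAMTS1 and ADAMTS9 were higher. The remaining ADAMTS genes were mostly rare. ADAMTS17, linked to a syndrome of short stature and eye lens defects, rose by 0.45 (SE 0.13, adjusted p 0.00319). ADAMTS6 had no overlap between groups but few counts, at most 23, and its log2 fold change of 1.28 did not pass (SE 0.60, adjusted p 0.077). ADAMTS7, ADAMTS12, ADAMTS13, ADAMTS16 and ADAMTS18 did not pass, with adjusted p of 0.692, 0.666, 0.373, 0.626 and 0.698. ADAMTS10 reached at most 1 count, and ADAMTS19 had none.

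ADAMTSL proteins resemble ADAMTS enzymes without the protease domain, and several bind the microfibrils of the matrix. ADAMTSL5 rose by 0.29 (SE 0.10, adjusted p 0.0181) and did not pass without GFP replicate 3 or T-MGM replicate 2, with adjusted p up to 0.177. ADAMTSL3 and ADAMTSL4 did not pass, with adjusted p of 0.212 and 0.879, and ADAMTSL1 and ADAMTSL2 reached at most 5 counts.

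All 4 TIMPs were higher in the libraries labelled T-MGM on the count scale, with no overlap between groups, whereas TIMP2 and TIMP3 turned on the TPM scale. Lack of overlap was common: it held for 46.8% of all genes tested, and for 7301 of 11652 tested genes averaging at least 100 normalized counts. TIMP1, a secreted inhibitor that also has growth factor activity, had 18840.0, 18517 and 18668 normalized counts in GFP, against 24718, 24266 and 24980.1 in T-MGM. It rose by 0.40 (SE 0.02, adjusted p 4.75e-138), a 1.32-fold difference. TIMP3, which binds to the matrix and also inhibits ADAM and ADAMTS enzymes, had the most reads of all members, at 64133, 63807 and 64359 against 70353, 70958 and 69889.8. It rose by 0.14 (SE 0.01, adjusted p 2.18e-30).

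TIMP2, which takes part in pro-MMP2 activation together with MMP14, had 10759, 10625 and 10611 normalized counts in GFP, against 11138, 11419 and 11255 in T-MGM. It rose by 0.08 (SE 0.02, adjusted p 0.000144). TIMP2 did not pass with scaling by total counts (adjusted p 0.32) or after the correction for GC content and length (0.259). On TPM values plus 1, TIMP2 and TIMP3 gave -0.06 and -0.01, where neither passed and the median gene moved by -0.13. TIMP1 was higher on both scales (0.25 on TPM values plus 1).

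TIMP4 was the rarest of the 4 by TPM and changed most. Its raw counts were 3, 0 and 6 in GFP, against 25, 29 and 44 in T-MGM, or 3.60, 0 and 6.85 against 22.8, 28.3 and 32.5 after normalization. Every T-MGM library was above every GFP library, with a log2 fold change of 3.02 (SE 0.68, adjusted p 4.34e-05) and a 95% interval from 3.22-fold to 20.5-fold. The value moved between 2.41 without GFP replicate 2 and 4.02 without GFP replicate 3, and passed each time. TIMP4 lies within SYN2 on the opposite strand, which covers 14.2% of its exon bases and had at most 5 counts in any library.

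**Figure D3:**
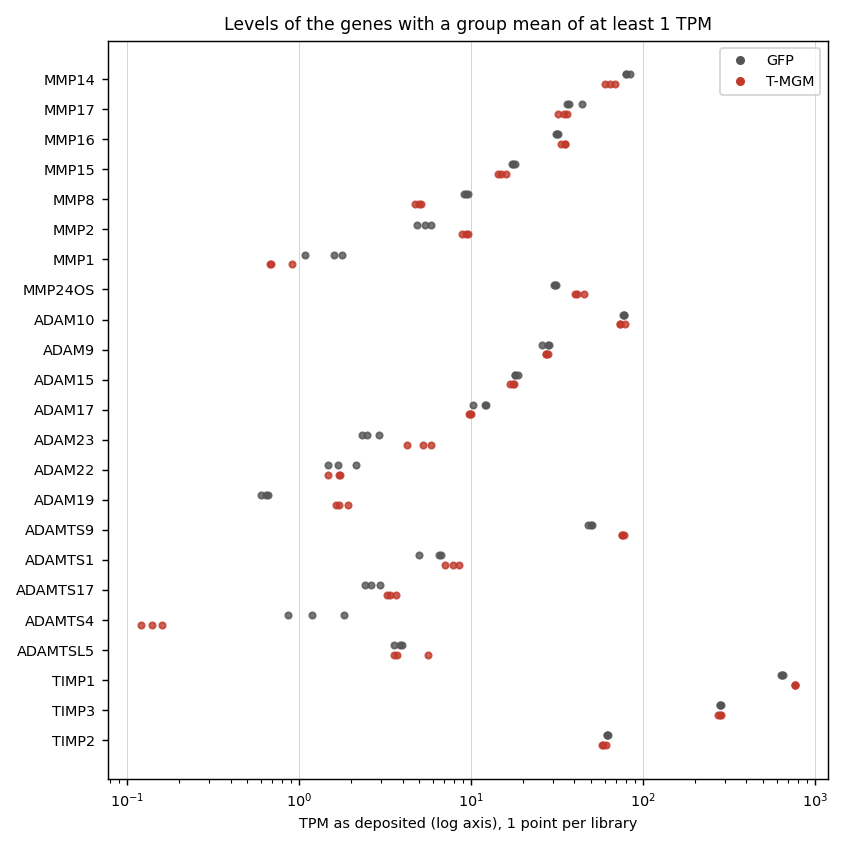
Deposited TPM of the 23 members with a mean of at least 1 TPM in a group, on a log axis, with 1 point per library, GFP in grey and T-MGM in red. TIMP1 and TIMP3 lie highest, at 644 and 281 TPM in GFP, and ADAMTS4 shows the widest gap between groups, 1.29 against 0.14 TPM.

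Levels of different genes can be compared only after scaling for transcript length, so they are given in TPM, as mean ± SD of 3 libraries. The inhibitors were far more abundant than the proteases. The 4 TIMP genes summed to 987 ± 5.41 TPM in GFP and 1102 ± 7.83 in T-MGM. All MMP genes together, leaving out MMP24OS, summed to 187 ± 5.77 and 165 ± 6.55 TPM, and all ADAM genes to 141 ± 1.37 and 139 ± 4.38. The ADAMTS sum was 60.2 ± 1.35 in GFP and 88.9 ± 0.745 in T-MGM, and that of the ADAMTSL genes 3.91 ± 0.240 and 4.40 ± 1.18. The sums of the groups did not overlap for the TIMP, MMP and ADAMTS genes and overlapped for the ADAM and ADAMTSL genes. The median gene was lower in T-MGM by 0.13 on the log2 scale in these TPM values, and 46.8% of all genes tested had no overlap in normalized counts.

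Within these sums a few genes carried most of the transcripts. TIMP1 stood at 644 ± 4.84 TPM in GFP and 764 ± 1.61 in T-MGM. TIMP3 followed at 281 ± 1.795 and 278 ± 5.69. MMP14 was the most abundant protease in GFP, at 80.8 ± 2.63 TPM, next to ADAM10 at 77.6 ± 0.745. In T-MGM ADAMTS9 and ADAM10 led, at 76.1 ± 1.40 and 75.2 ± 3.13 TPM, which lie within the SD of ADAM10, while MMP14 stood at 64.3 ± 4.39.

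TIMP2 stood at 62.0 ± 0.204 TPM in GFP and 59.3 ± 1.298 in T-MGM. MMP17 had 39.4 ± 4.37 and 34.3 ± 2.04, MMP16 31.7 ± 0.483 and 34.6 ± 1.17, and these 2 genes cannot be ranked in T-MGM beyond their SD. The gelatinase MMP2 was much rarer, at 5.38 ± 0.506 TPM in GFP and 9.28 ± 0.367 in T-MGM, and MMP8 went from 9.35 ± 0.211 to 4.96 ± 0.225. Of the called members, ADAM19 was the most abundant in T-MGM at 1.76 ± 0.144 TPM, while ADAMTS3 and TIMP4 reached 0.517 ± 0.0451 and 0.490 ± 0.0819. The strongest fold changes thus belonged to rare transcripts.

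Promoter sequence was examined for letters related to the construct, because MITF is known to bind the E-box CACGTG and the M-box core CATGTG and MAF proteins bind sites that hold TGCTGAC. AP-1 sites, TGAGTCA or TGACTCA, were included as known elements of MMP promoters. RefSeq entries matched 45 of the 72 members, and the 250 bases before each start were read on both strands. The E-box was in 5 of the 45 (ADAM10, ADAM30, ADAMTS17, ADAMTS6 and MMP21) and in 6.49% of 27305 promoters. The M-box core, read as CATGTG or CACATG, was in 3 (ADAMTS6, ADAMTSL2 and MMP10) and in 9.54% of all. Of the 45, AP-1 was in MMP7 alone, and it was in 4.16% of all promoters. The MAF half-site, TGCTGAC or GTCAGCA, was in none of the 45 and in 3.42% of all. Members without an entry were not searched. Of the 8 members with an E-box, M-box core or AP-1 match, ADAMTS17 was the one that passed.

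The windows of the called higher members with an entry are given to let their composition be compared, with that of ADAMTS17, whose E-box is in capitals and begins 199 bases before the start. All lie on the minus strand of GRCh38.p14 and are written in the direction of transcription: ADAMTS3 at chr4:72569222-72569471, ADAM19 at chr5:157575776-157576025, TIMP4 at chr3:12158913-12159162 and ADAMTS17 at chr15:100341976-100342225.
ADAMTS3: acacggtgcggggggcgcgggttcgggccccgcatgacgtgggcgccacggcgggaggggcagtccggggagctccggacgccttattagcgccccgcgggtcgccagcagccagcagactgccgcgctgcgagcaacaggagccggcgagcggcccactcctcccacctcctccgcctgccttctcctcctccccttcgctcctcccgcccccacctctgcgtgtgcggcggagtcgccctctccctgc
ADAM19: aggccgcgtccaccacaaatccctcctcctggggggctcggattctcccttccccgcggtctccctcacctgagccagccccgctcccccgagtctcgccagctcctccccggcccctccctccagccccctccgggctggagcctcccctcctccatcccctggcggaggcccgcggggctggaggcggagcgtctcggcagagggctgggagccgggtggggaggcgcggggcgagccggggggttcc
TIMP4: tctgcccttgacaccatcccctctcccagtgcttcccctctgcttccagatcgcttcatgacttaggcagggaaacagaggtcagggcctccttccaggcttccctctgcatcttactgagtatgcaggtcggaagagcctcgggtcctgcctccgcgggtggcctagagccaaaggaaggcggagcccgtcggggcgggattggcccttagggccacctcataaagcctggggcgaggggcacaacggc
ADAMTS17: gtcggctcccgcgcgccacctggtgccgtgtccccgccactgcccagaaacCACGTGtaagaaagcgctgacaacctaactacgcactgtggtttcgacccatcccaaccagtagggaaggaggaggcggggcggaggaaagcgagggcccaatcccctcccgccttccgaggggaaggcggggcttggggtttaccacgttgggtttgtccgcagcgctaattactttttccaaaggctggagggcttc

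The windows of ADAMTS3 and ADAM19 were rich in G and C, at 75.2% and 76.4%, and those of TIMP4 and ADAMTS17 stood at 62.8% and 62.4%. None of the searched letters was in the windows of ADAMTS3, ADAM19 or TIMP4. This says only that these letters are not within 250 bases before the start, since binding sites can lie elsewhere.

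The position of the members on the chromosomes was examined as well. Genes within 10 Mb of ADAMTS3 had a median log2 fold change of -0.08, those near ADAM19 of -0.03 and those near ADAMTS4 of -0.10. The members themselves stood at 2.98, 1.60 and -2.64. The median near TIMP4 was 0.23. ADAM23 rose by 0.86 among neighbours with a median of -0.31. For TIMP1, TIMP2 and TIMP3 the medians of the neighbours were 0.12, 0.10 and 0.12, beside changes of 0.40, 0.08 and 0.14. Any part of chromosomal position in the changes of the members was not tested.

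Genes that work with these enzymes were taken from 6 lists of 83 genes: activating proteases, other inhibitors, partners, shed membrane proteins, matrix substrates and relatives with other names. Of the 70 with an adjusted p, 31 were higher and 9 were lower in T-MGM, a share of 57.1% passed. The share was 38.4% over all genes tested, with 19.2% in each direction. It was 49.4% over tested protein-coding genes and 56.3% over all tested genes averaging at least 100 normalized counts. Among the 4 tested activators, 2 were higher and none lower. FURIN, the convertase that removes the propeptide of many MMPs, ADAMs and ADAMTS enzymes, rose from 4747 ± 39.5 to 6945 ± 94.6 normalized counts (mean ± SD of 3 libraries). Its log2 fold change was 0.55 (SE 0.03, adjusted p 1.09e-102).

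Of the 7 tested genes for other inhibitors and for clearance, 3 were higher and 2 were lower. A2M, the protease trap alpha-2-macroglobulin, rose by 0.83 (SE 0.02, adjusted p too small to store). Its receptor LRP1, which clears proteases and TIMPs from the surroundings of the cell, rose by 0.59 (SE 0.06, adjusted p 1.4e-20). SPOCK1, a matrix proteoglycan of the testican family, fell by 1.92 (SE 0.15, adjusted p 2.88e-36) and was the only called lower gene of the 6 lists. Of the 12 partners, 5 were higher and 1 was lower. TSPAN10, a tetraspanin of the group that guides ADAM10, rose by 0.62 (SE 0.06, adjusted p 1.32e-23). RHBDF1 (iRhom1), needed for the maturation of ADAM17, rose by 0.42 (SE 0.04, adjusted p 7.11e-20), and BSG, known as an inducer of MMPs, by 0.12 (SE 0.02, adjusted p 2.11e-14).

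The shed membrane proteins were the longest list. Of 28 tested, 16 were higher, 5 were lower and 7 did not pass, with a median log2 fold change of 0.37. The share that passed was 75.0%, beside 49.4% of tested protein-coding genes and 71.4% of the inhibitor and clearance list. Over all tested genes averaging at least 100 normalized counts it was 56.3%, and 10.6% below that level. AXL, a receptor tyrosine kinase whose outer part is released by ADAM10 and ADAM17, rose from 236 ± 13.4 to 1126 ± 80.4 normalized counts, a log2 fold change of 2.26 (SE 0.09, adjusted p 2.19e-136). CD44, the hyaluronan receptor, rose by 0.64 (SE 0.02, adjusted p too small to store), and APLP2, a relative of the amyloid precursor protein, by 0.59 (SE 0.02, adjusted p 6.12e-134). ALCAM, an adhesion protein cut by ADAM17, had the largest called change of this list among genes with a mean over 100 counts and is named after its values were seen, with 31.0 ± 6.05 against 434 ± 32.2 normalized counts (log2 fold change 3.80, SE 0.20, adjusted p 1.52e-81).

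Of 18 tested matrix substrates, 5 were higher, 1 was lower and 12 did not pass. The share that passed was 33.3%, beside 49.4% of tested protein-coding genes. FN1, VCAN, LTBP1, BCAN and NID1 averaged at least 100 normalized counts, and all of them passed. The other tested substrates averaged under 100, and of these COL1A1 alone passed. Over all tested genes, 56.3% passed at 100 or more counts and 10.6% under 100. FN1, fibronectin, rose by 0.20 (SE 0.01, adjusted p 9.88e-60) from a level of 259892 ± 812 normalized counts. BCAN, the brain proteoglycan brevican that ADAMTS4 can cut, rose by 0.48 (SE 0.06, adjusted p 9.76e-14). NID1, the basement membrane linker nidogen, fell by 0.45 (SE 0.04, adjusted p 9.69e-37). No gene of the 3 relatives with other names passed.

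Because fibroblasts make several of these proteases, markers of other cell types were examined beside the members. Summed normalized counts of 6 fibroblast markers were 389 to 409 in GFP and 737 to 815 in T-MGM. LUM and PDGFRA carried most of this sum. PDGFRA was called higher at 2.82-fold, COL1A1 at 2.35-fold and PDGFRB at 2.59-fold. PDGFRB had few reads and a DESeq2 adjusted p of 0.0482, and its groups overlapped, with GFP replicate 2 at 16.2 above T-MGM replicate 1 at 14.6. LUM passed as higher at 1.70-fold, DCN did not pass, and COL3A1 had at most 2 counts in any library. The immune sum of 5 markers was 800 to 883 against 975 to 1195, almost all of it CD68, with PTPRC at no more than 2 counts. CD68 passed as higher at 1.36-fold. LYZ went the other way and was called lower, from 71.8 to 28.6 normalized counts on average (log2 fold change -1.32, DESeq2 adjusted p 7.83e-05). CD14 did not pass, and CD3E had at most 1 count in any library. The 4 endothelial markers summed to 22.8 to 41.1 against 34.7 to 50.7, and the 4 keratinocyte markers to no more than 5.996 in any library. The part of the fibroblast and immune markers in the changes of the proteases was not tested.

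**Figure D4:**
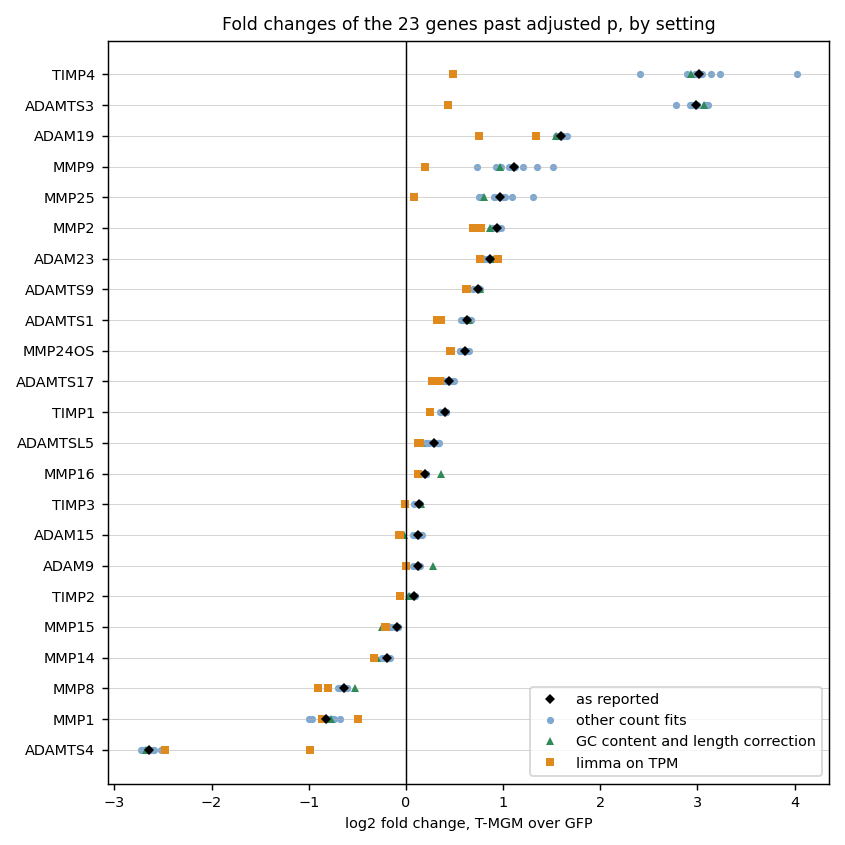
Log2 fold changes, T-MGM over GFP, of the 23 members that passed, by way of analysis. Black diamonds are the reported DESeq2 values, blue points other fits on the counts including each library left out, green triangles a correction for GC content and length, and orange squares limma on log2 TPM values; ADAM15, TIMP2 and TIMP3 cross 0, and low genes such as ADAMTS3 and TIMP4 lie near 0.5 on the TPM scale because a constant of 1 is added to values under 1.

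The reported directions were compared across these settings for each of the 23 members. ADAM19, ADAM23, ADAMTS4, ADAMTS9, MMP2, MMP8, MMP14, MMP24OS and TIMP1 kept direction and passed in all 16 alternatives. ADAMTS3 and TIMP4 did so in all 14 alternatives that gave them a value, since a minimum of 0.5 TPM in 3 libraries left them out of the other 2. MMP9 passed in 8 of 14 and MMP25 in 7 of 14.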

How the data were processed

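Gene expression was measured in 3 GFP and 3 T-MGM libraries of WM164 cells, grouped by sample title. Per the labels and the study's methods, the authors trimmed reads with cutadapt 1.8.1, aligned them to GRCh38 with STAR 2.7.7a and, with featureCounts, counted the reads that aligned uniquely to each gene. The deposited counts are whole and not normalized. The authors also deposited TPM values made with RSEM 1.3.0. The annotation release is not given in the sources used here. The labels name a library kit without strand information and the methods one with it, so reads of genes on opposite strands may be mixed.

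Counts of all 58870 genes were fitted with DESeq2 1.42.0 in R 4.3.3. The tool, the adjusted p threshold and the 2-fold threshold are those of the study's methods. The other settings were chosen here: group as the only term, median-of-ratios factors, 2-sided Wald test, no shrinkage, independent filtering at 0.05, Benjamini-Hochberg adjustment over all genes tested, and an absolute log2 fold change over 1 for a call. The dispersion trend was fitted by local regression. Alternatives used edgeR 4.0.16 (quasi-likelihood), TMM factors or total counts, a minimum of 10 counts in 3 libraries, all genes kept without independent filtering, a block for the replicate number, each library left out, lowess offsets (span 0.3) for GC content and length, and limma 3.58.1 on log2(TPM + 1) or log2(TPM + 0.1), with and without a minimum of 0.5 TPM in 3 libraries. DESeq2 with and without the replicate block, edgeR and limma were tested on simulated counts, limma on CPM with a constant of 1. The other alternatives were not tested in this way.

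Values were given per library for called members, TIMPs and members averaging 500 or more normalized counts. Those from 100 were given by fold change (MMP1 also per library). The rest were planned by range and count. Several of them were also given by fold change or adjusted p, and MMP25 per library. Of each list of related genes, the 3 with the smallest adjusted p among those with at least 100 counts were named. The members and lists were chosen with earlier results of these data known. Positions and overlaps are from GENCODE, which held 99.4% of the identifiers, and promoters from RefSeq. A planned search of the proteins for the zinc-binding and propeptide motifs was not run here.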

Additional observations from a re-analysis of the deposited data

How the results depend on the processing

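The number of members that passed was 23, and it was 24 with edgeR or TMM factors, 23 with a minimum of 10 counts or without independent filtering, 21 after the correction for GC content and length (where ADAM10, ADAM17 and MMP17 passed and ADAM15, ADAMTSL5, MMP25, MMP9 and TIMP2 did not), 20 with total-count scaling (without ADAM15, ADAMTSL5 and TIMP2), and 20 to 22 with a library left out. It was 13 with limma on TPM values at a constant of 1 or 0.1, and also 13 without a filter. The 5 called members became 5 to 6 with a library left out, with MMP9 replaced by ADAMTS5 (without GFP replicate 1 or T-MGM replicate 2) or MMP3 (without GFP replicate 2), or joined by MMP25 (without GFP replicate 3 or T-MGM replicate 1), and were 4 after the GC content and length correction, which lost MMP9. On TPM values limma called 0 members with a constant of 1, with or without the filter, although 13 passed the adjusted p, and 2 (ADAM19 and ADAMTS4) with 0.1. Of the related genes, 36 to 40 passed under each alternative tried.

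Replicate numbers of the 2 groups gave correlations of -0.007, -0.058 and 0.029 between the deviations of same-numbered libraries, and 5 of the 6 libraries correlated best with another number, so they were not taken as pairs. With the replicate block 18 members passed and 4 were called; ADAM15, ADAMTSL5, MMP15, MMP25 and MMP9 no longer passed.

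Directions reversed as follows on the log2 scale. With total-count scaling ADAM10 gave -0.000865 and MMP17 -0.0266. After the GC content and length correction ADAM15 gave -0.0163, ADAM17 0.118 and MMP17 -0.156. On TPM values with the constant of 1, filtered or not, ADAM10 gave -0.0457, ADAM15 -0.0663, ADAM22 -0.0619, MMP17 -0.19, TIMP2 -0.0646 and TIMP3 -0.013. With the constant of 0.1 they gave -0.0463, -0.0697, -0.0891, -0.195, -0.0655 and -0.013. ADAM17 lay between -0.0446 and 0.019 with a library left out. The median gene moved by -0.13 to -0.15 on the TPM values. The cause of the reversals was not tested. Members with few counts, such as the 21 tested ones under 100 that did not pass, had SEs of 0.31 to 1.28, so changes of 2-fold or more could go undetected in many of them.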

Other observations

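Another 22 entries of the count table carry the names of these families without meeting the rule, most of them pseudogenes and antisense genes. No count was found for 9 of them, 6 had an adjusted p and 2 passed. ADAMTS9-AS2 rose from 172 to 218 normalized counts on average (log2 fold change 0.34, SE 0.14, DESeq2 adjusted p 0.0452), beside a rise of 0.75 for ADAMTS9 itself. MMP25-AS1 was the other. Neither had overlapping groups.

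Among shed ligands of the epidermal growth factor receptor, AREG had raw counts of 0, 0 and 1 in GFP replicates 1 to 3, against 41, 34 and 27 in the libraries labelled T-MGM. It was chosen after its values were seen, and no fold is given because the GFP libraries were at or under 3 counts.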
